A study of Homo sapiens with 30 samples.

Results

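The genes described here are 10 kinesins that act in mitosis: KIF11, KIF15, KIFC1, KIF18A, KIF2C, CENPE, KIF4A, KIF14, KIF20A and KIF23. They were taken by name from the gene symbols of the array platform, and the list was chosen with earlier results of these data known. Of the 10 genes, 9 were measured, out of 22011 gene-level transcript clusters; KIFC1 was not analysed here. Clusters that carried 1 symbol measured 6 of them. KIF20A, KIF23 and KIF4A shared their clusters with another symbol and were measured by the median over those exon-level probe sets that carried 1 symbol, tested among such medians for 16909 genes.

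The cells were T47D, an established human breast cancer line. They were transfected for knockdown of NELF, the negative elongation factor, with 10 nM siRNA. The siRNA was directed at luciferase (control) or at a NELF subunit: A, B, C or E. Medium was renewed after 48 hours and cells were collected 48 hours after that, so every group, control included, had gone through transfection. Each of the 5 groups had 3 human exon arrays, which the series text calls technical repeats, so p-values measure only the spread between such repeats.

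Kinesins are motor proteins that use ATP to move along microtubules or to take microtubule ends apart. The mitotic ones build and hold the bipolar spindle, move and align chromosomes, and organise the central spindle and midbody for cytokinesis. Their transcripts are known to peak in G2 and mitosis, under the control of the MuvB core with B-MYB and FOXM1, and to be held low in resting cells by the DREAM complex. Promoters of such genes often pair a CCAAT box, bound by NF-Y, with a cell cycle homology region (CHR), bound by MuvB complexes. NELF itself is a complex that holds RNA polymerase II near the start of genes.

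All 10 members had a promoter entry in RefSeq (build GRCh38.p14), reaching from 250 bases before to 50 bases after the start. Both strands were searched for CCAAT, for the CHR as TTTGAA or TTCGAA, and for E2F sites as TTTGGCGC or TTTCCCGC. No match in a member shared a base with a match to another motif. The 100 bases that end just before the start are printed for 8 members, because they show the motif pair that recurs among these genes and the 4 members that lack it. Capitals mark the motifs, and a match read on the opposite strand appears as its reverse complement (CCAAT as ATTGG).
KIF11 (chr10:92593030-92593129, + strand): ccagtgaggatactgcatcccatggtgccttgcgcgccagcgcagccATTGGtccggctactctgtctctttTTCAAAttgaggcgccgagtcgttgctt
KIF18A (chr11:28108157-28108256, - strand): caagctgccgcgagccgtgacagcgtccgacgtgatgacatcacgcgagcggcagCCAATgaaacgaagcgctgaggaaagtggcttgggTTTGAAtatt
KIF4A (chrX:70290004-70290103, + strand): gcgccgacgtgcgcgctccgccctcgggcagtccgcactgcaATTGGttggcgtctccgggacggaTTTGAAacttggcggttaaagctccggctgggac
KIF23 (chr15:69414249-69414348, + strand): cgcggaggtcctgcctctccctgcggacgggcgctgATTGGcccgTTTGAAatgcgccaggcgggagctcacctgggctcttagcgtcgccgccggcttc
KIF15 (chr3:44761694-44761793, + strand): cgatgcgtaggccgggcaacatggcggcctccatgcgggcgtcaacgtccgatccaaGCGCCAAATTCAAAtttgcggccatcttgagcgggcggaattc
KIF20A (chr5:138179012-138179111, + strand): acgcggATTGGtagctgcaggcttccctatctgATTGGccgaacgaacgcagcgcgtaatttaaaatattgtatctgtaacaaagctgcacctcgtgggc
KIF2C (chr1:44739737-44739836, + strand): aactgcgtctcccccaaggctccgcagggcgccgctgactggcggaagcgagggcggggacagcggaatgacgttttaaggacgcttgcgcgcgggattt
CENPE (chr4:103198344-103198443, - strand): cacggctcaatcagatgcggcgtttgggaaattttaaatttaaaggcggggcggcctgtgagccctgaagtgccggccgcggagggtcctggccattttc

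A CCAAT box was found in 7 of 10 member promoters, against 34.6% of the 35116 promoters in the table. The CHR was found in 7 of 10, against 16.4%. Both stood together in 6 of 10 (KIF11, KIF18A, KIF4A, KIF23, KIF14 and KIFC1), against 6.38%. In KIF14 and KIFC1 the CHR match began past the start, at positions 2 and 5. KIF20A had 2 CCAAT boxes and no CHR. KIF15 had a CHR and, right beside it, the only E2F match among the members, a motif held by 2.27% of promoters. KIF2C and CENPE matched none of the motifs in this window. The matches describe letters and not bound sites.

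The arrays were compared first. NELFCD, which encodes the C subunit, changed by -3.42 on the log2 scale in the siNELF-C arrays (adjusted p 1.67e-05, limma), and NELFE changed by -2.61 in the siNELF-E arrays (adjusted p 2.49e-05). NELFA changed by -0.61 in the siNELF-A arrays, which did not pass the test (adjusted p 0.176), and NELFB was not analysed here. All 8 luminal epithelial markers were high, at mean levels of 6.78 to 12.41, while all 4 endothelial markers and 4 of 5 leukocyte markers, PTPRC and CD3E among them, lay below the 40th percentile of genes, which was 3.90. Of the fibroblast markers 2 of 4 lay below it, while COL1A1 stood at 5.77 and COL1A2 at 4.13, and KRT14, the 1 basal marker of 4 that was measured, stood at 5.28. The part of these markers in the results was not tested. Arrays of 1 group correlated at 0.9836 or above, except for siNELF-B, where r ran from 0.9172 to 0.9729. The siNELF-B arrays stood apart from each other for the kinesins too. Relative to the mean of the control arrays, the members' median was -1.04, -0.09 and -2.10 on siNELF-B arrays 1, 2 and 3. Array 2 thus lay among the controls (-0.13, -0.05 and 0.16). Array 3 had the narrowest spread of values over all genes, with an interquartile range of 3.12 where the other arrays had 3.57 to 4.12. The fit pools the spread over groups, so both arrays bear on every test. The counts of members in comparisons with control are also given without them. Those of gene lists are given without them at least in the mean of the knockdowns.

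All 9 measured kinesins were lower than control on average in each of the 4 knockdowns. For the 8 members other than CENPE the mean change was largest with siNELF-E. For KIF11 and KIF15 siNELF-E differed from siNELF-C by only -0.12 and -0.03 (adjusted p 0.932 and 0.973, limma), so no order of these siRNAs is read there. For CENPE, whose signal was near the lower end with siNELF-C and siNELF-E, no order is read either. In the siNELF-E arrays 9 of 9 fell, those other than CENPE by log2 changes from -1.61 (KIF23) to -2.57 (KIF20A), with a median of -2.16 where the median over all clusters was -0.02. In the siNELF-C arrays 7 of 9 fell, with a median of -1.36 (all clusters -0.08). No member passed the test with siNELF-A or siNELF-B, where the medians were -0.94 and -1.05 (all clusters -0.03 and -0.14). No member rose in any comparison. A gene counts as fallen here when its Benjamini-Hochberg adjusted p in limma, over all features, was under 0.05 and its change at least 1.5-fold. Quantile normalization moved the median of all clusters from -0.14 to 0.04 with siNELF-B and from -0.08 to 0.05 with siNELF-C and in the mean of the knockdowns, and the 9 members stayed below 0 in each knockdown. All values are log2 values on the deposited scale, and the 4 comparisons share the same 3 control arrays. In bulk RNA, fewer cells in mitosis and less RNA per cell cannot be told apart.

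**Figure D1:**
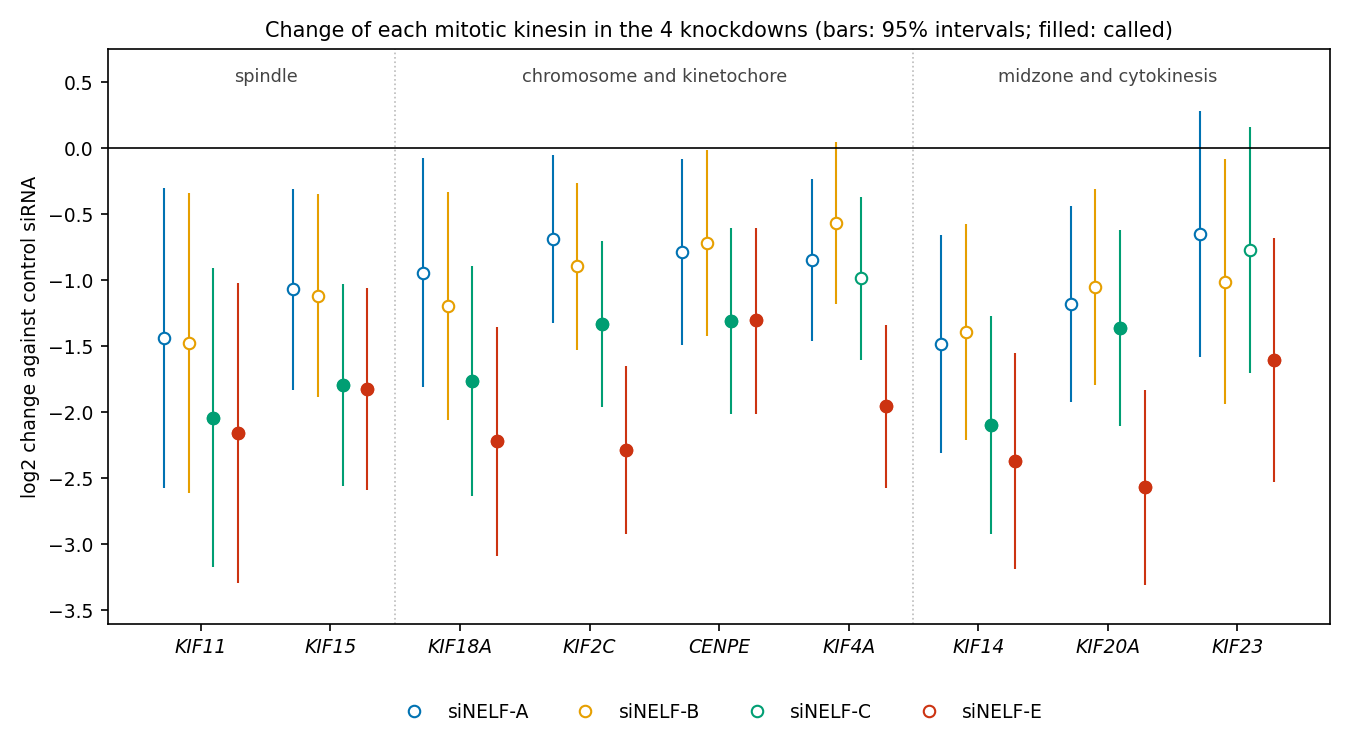
Log2 change against control siRNA (vertical axis) of the 9 measured kinesins, grouped by role, in the 4 knockdowns; points are differences of means of 3 arrays, bars are 95% intervals from limma, and filled points passed the test. All points lie below 0, the siNELF-E points other than CENPE lie between -1.61 and -2.57, and no siNELF-A or siNELF-B point is filled.

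These shares can be read against the rest of the array. With siNELF-E, 4.04% of clusters and 3.32% of exon medians were called lower, beside 6 of 6 and 3 of 3 members measured that way. With siNELF-C, 5.3% of clusters and 4.34% of exon medians were called lower, beside 6 of 6 and 1 of 3 members. With siNELF-A, 2.83% of clusters and 2.05% of exon medians were called lower, and with siNELF-B 4.19% and 3.2%, beside no member. At an unadjusted p under 0.05, 8 of 9 members were lower with siNELF-A, where 12.7% of clusters and 11.1% of exon medians were, and 8 of 9 with siNELF-B, where 25.2% and 27.6% were. Weighting arrays by their quality, a fit that did not fully converge, gave 8 calls in each. In that fit 8.25% of clusters and 10.6% of exon medians were called lower with siNELF-A, and 23.5% and 33% with siNELF-B. In the mean of the 4 knockdowns against control, 8 of 9 fell, 6 of 6 by clusters (background 4.46%) and 2 of 3 by exon medians (background 3.91%). The exception was KIF23 (-1.01, adjusted p 0.107).

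The counts with siNELF-C and in the mean of the knockdowns leaned on single arrays. The mean count was 4, 4 and 1 without control arrays 1, 2 and 3. The siNELF-C count was 2, 2 and 1 without those control arrays and 2, 1 and 3 without siNELF-C arrays 1, 2 and 3, while the siNELF-E count stayed between 6 and 9 whichever array was left out. Within it the call of KIF23 held in 2 of 15 such fits, those of KIF11 and CENPE in 9 of 15, and those of the other 6 members in 15 of 15. Without siNELF-B arrays 2 and 3, the members called lower were 9 with siNELF-A, 6 with siNELF-B (1 array), 9 with siNELF-C, 9 with siNELF-E and 9 in the mean, while the share of all clusters called lower rose to 8.97%, 17.8%, 14.8%, 7.81% and 9.69%.

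Position of the single arrays gave a second view. All 3 siNELF-E arrays lay below all 3 control arrays for 9 of 9 members (21.1% of clusters and 19.7% of exon medians did so). The same held for 9 of 9 members with siNELF-C (31.3% and 32.8%) and for 9 of 9 with siNELF-A (22.5% and 22.1%). With siNELF-B it held for 5 of 9, with a background of 16.6% of clusters and 17% of exon medians, since array 2 of that group reached the control range for KIF15, KIF2C, CENPE and KIF23.

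**Figure D2:**
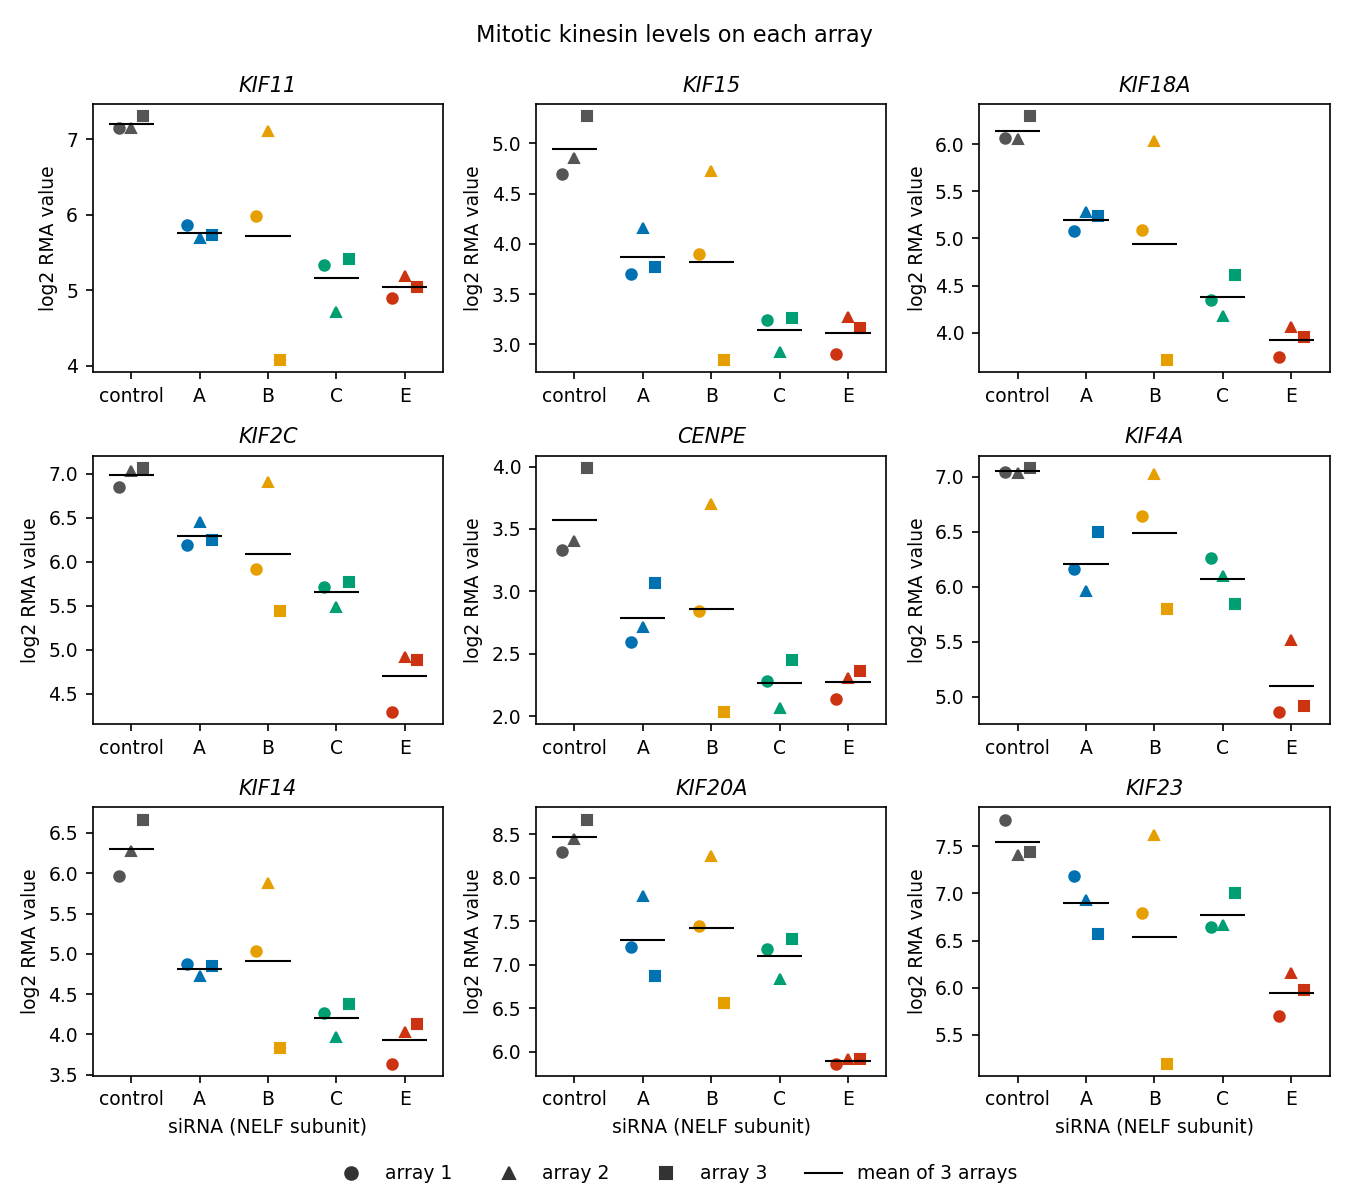
Log2 RMA value (vertical axis) of each measured kinesin on all 15 arrays, by siRNA (horizontal axis); symbols mark arrays 1, 2 and 3 and lines mark means of 3 arrays. The siNELF-B triangle (array 2) lies near the controls and the siNELF-B square (array 3) lies low in every panel. The arrays of each other group spread less than those of siNELF-B in every panel, though not always narrowly, as for KIF20A with siNELF-A.

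KIF11 (cluster 3258168), the plus-end motor that slides spindle poles apart, stood at 7.14, 7.15 and 7.30 on the control arrays. It stood at 5.87, 5.69 and 5.73 with siNELF-A, at 5.98, 7.11 and 4.07 with siNELF-B, at 5.34, 4.71 and 5.42 with siNELF-C and at 4.89, 5.19 and 5.04 with siNELF-E. The siNELF-C and siNELF-E arrays lay far under every control array and overlapped each other. The fall was 4.46-fold with siNELF-E (log2 change -2.16, SE 0.52, adjusted p 0.0285) and 4.11-fold with siNELF-C (-2.04, adjusted p 0.0361). The siNELF-C call held in 4 of the 15 fits that left out an array, and its adjusted p rose to as much as 0.144.

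KIF15 (cluster 2620256), a second plus-end motor that can keep the spindle bipolar when KIF11 is impaired, had a low signal. Its values were 4.70, 4.85 and 5.27 on the control arrays, 3.70, 4.16 and 3.77 with siNELF-A, and 3.90, 4.73 and 2.84 with siNELF-B. They were 3.25, 2.93 and 3.26 with siNELF-C and 2.91, 3.28 and 3.16 with siNELF-E. All 4 knockdown means lay below the 40th percentile of genes, so its changes can be compressed by the low signal. KIF15 fell with siNELF-E (log2 change -1.83, SE 0.35, adjusted p 0.00761) and with siNELF-C (-1.79, adjusted p 0.0115), the latter in 13 of 15 fits without an array.

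Among the motors of chromosomes and kinetochores, KIF18A (cluster 3367338) damps the oscillation of chromosomes at the spindle equator. It stood at 6.06, 6.06 and 6.30 on the control arrays, 4.35, 4.18 and 4.61 with siNELF-C, and 3.75, 4.06 and 3.95 with siNELF-E. Every siNELF-E array lay under every siNELF-C array, and the siNELF-A arrays (5.07, 5.29 and 5.24) lay between these and the controls. The siNELF-B arrays again spread widely, at 5.09, 6.03 and 3.71. KIF18A fell 4.65-fold with siNELF-E (log2 change -2.22, SE 0.40, adjusted p 0.00506) and 3.39-fold with siNELF-C (-1.76, adjusted p 0.0225). The siNELF-C call held in 9 of the 15 fits that left out an array.

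KIF2C (cluster 2334098), also called MCAK, removes tubulin from microtubule ends and helps to correct wrong kinetochore attachments. Its control values were 6.85, 7.03 and 7.07, and it stood at 6.19, 6.46 and 6.25 with siNELF-A and at 5.92, 6.91 and 5.44 with siNELF-B. With siNELF-C it stood at 5.71, 5.48 and 5.77, and with siNELF-E at 4.29, 4.92 and 4.89. The controls lay above all siNELF-A arrays, these above all siNELF-C arrays, and these above all siNELF-E arrays. KIF2C fell 4.87-fold with siNELF-E (log2 change -2.28, SE 0.29, adjusted p 0.000481) and 2.51-fold with siNELF-C (-1.33, adjusted p 0.0194). With siNELF-C the call held in 10 of 15 fits without an array.

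CENPE (cluster 2780172), the kinetochore motor that carries chromosomes to the spindle equator, also had a low signal. It stood at 3.33, 3.40 and 3.99 on the control arrays, 2.28, 2.06 and 2.45 with siNELF-C, and 2.14, 2.31 and 2.37 with siNELF-E. All 5 group means lay below the 40th percentile of genes, and with siNELF-C and siNELF-E the means (2.27 and 2.27) were also below the 25th percentile, 2.70. The log2 changes of -1.31 with siNELF-C (adjusted p 0.0317) and -1.30 with siNELF-E (adjusted p 0.0327) passed the test. At this signal no fold is given and the 2 siRNAs are not ordered. Each call held in 9 of 15 fits without an array, and both were lost with the array number as a block (adjusted p 0.0576 and 0.0594). The siNELF-A arrays read 2.59, 2.71 and 3.07, and the siNELF-B arrays 2.84, 3.70 and 2.04.

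KIF4A is a motor that binds chromosome arms and shapes the central spindle with PRC1. KIF4B is a near-identical copy of it: 23 further probe sets carried both symbols and were left out, and 11 with the KIF4A symbol alone were used, so its values are uncertain to that extent. The control arrays read 7.04, 7.03 and 7.08, the siNELF-C arrays 6.26, 6.10 and 5.84, and the siNELF-E arrays 4.86, 5.52 and 4.92. The siNELF-E arrays lay below all arrays of the other groups. KIF4A fell 3.87-fold with siNELF-E (log2 change -1.95, SE 0.28, adjusted p 0.00131), whereas its change of -0.98 with siNELF-C missed the threshold (adjusted p 0.0603). With siNELF-A (6.16, 5.96 and 6.50) and siNELF-B (6.64, 7.03 and 5.80) the arrays overlapped those of siNELF-C.

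Among the motors of the midzone and cytokinesis, KIF14 (cluster 2450345) recruits citron kinase to the midbody. It read 5.96, 6.27 and 6.67 on the control arrays, 4.27, 3.97 and 4.38 with siNELF-C, and 3.64, 4.02 and 4.13 with siNELF-E. The siNELF-A arrays were tightly grouped at 4.87, 4.73 and 4.85, below all controls and above all siNELF-C and siNELF-E arrays, and siNELF-B read 5.03, 5.88 and 3.83. KIF14 fell 5.18-fold with siNELF-E (log2 change -2.37, SE 0.38, adjusted p 0.00225) and 4.28-fold with siNELF-C (-2.10, adjusted p 0.00742). Its changes with siNELF-A (-1.48, adjusted p 0.0514) and siNELF-B (-1.39, adjusted p 0.0541) lay just outside the threshold.

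KIF20A, also called MKLP2, brings the chromosomal passenger complex to the central spindle. It read 8.30, 8.44 and 8.67 on the control arrays, 7.20, 7.79 and 6.87 with siNELF-A, 7.45, 8.25 and 6.56 with siNELF-B, and 7.18, 6.84 and 7.30 with siNELF-C. The siNELF-E arrays read 5.86, 5.92 and 5.92, below every array of every other group and close to each other. The fall with siNELF-E was 5.93-fold (log2 change -2.57, SE 0.34, adjusted p 0.00061), and with siNELF-C it was 2.57-fold (-1.36, adjusted p 0.0361). The siNELF-C call held in 5 of the 15 fits that left out an array, and its adjusted p rose to as much as 0.156.

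KIF23, or MKLP1, is the motor of the centralspindlin complex. It read 7.79, 7.41 and 7.45 on the control arrays, 7.19, 6.94 and 6.57 with siNELF-A, 6.79, 7.62 and 5.19 with siNELF-B, 6.65, 6.67 and 7.01 with siNELF-C, and 5.69, 6.15 and 5.97 with siNELF-E. Only the siNELF-E change passed the test (3.04-fold lower, log2 change -1.61, SE 0.43), and narrowly (adjusted p 0.0496). The changes with siNELF-A (-0.65, adjusted p 0.516) and siNELF-C (-0.77, adjusted p 0.295) were smaller, and the 95% intervals reached 0.28 and 0.16 above 0.

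The knockdowns were then set against each other. Ordered by group means, siNELF-E was lowest for the 8 members other than CENPE and control was highest for all 9, but no difference between neighbours in that order passed the test for any member. Further apart, KIF2C, KIF20A and KIF4A were called lower with siNELF-E than with siNELF-A (-1.60, -1.39 and -1.11, adjusted p 0.00727, 0.0381 and 0.0463). The same 3 were lower with siNELF-E than with siNELF-B (-1.39, -1.52 and -1.39, adjusted p 0.0155, 0.0216 and 0.0149). Neither count was stable. The first was 1 or 2 in 13 of the 15 fits that left out an array and 1 with the replicate block. The second was 0, 2 and 1 without siNELF-E arrays 1, 2 and 3, 1 without siNELF-B array 1, and 0 in a fit to those 2 groups only. The background for siNELF-E against siNELF-A was 1.49% of clusters and 1.14% of exon medians, and against siNELF-B it was 1.16% and 0.976%.

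No member was called between siNELF-E and siNELF-C (background 1.59% and 1.28%), siNELF-C and siNELF-A (1.66% and 1.11%), siNELF-C and siNELF-B (0.536% and 0.254%) or siNELF-B and siNELF-A (3.46% and 2.37%). At an unadjusted p under 0.05, limma gave 3, 1, 0 and 0 members lower in these pairs, where 7.34%, 9.31%, 4.54% and 14.8% of clusters were. With array weights the calls were 4, 3, 4 and 0, where 3.6%, 7.41%, 7.21% and 16.6% of clusters were called lower. Without siNELF-B arrays 2 and 3, the siNELF-E arrays were lower than siNELF-A for 8 members and siNELF-C lower than siNELF-A for 5, against 3.71% and 7.07% of all clusters.

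Between siNELF-E and siNELF-C, the 2 knockdowns with the largest median changes, the differences varied in size among the kinesins. The genes were not tested against each other. KIF20A, KIF4A, KIF2C and KIF23 read lower with siNELF-E by -1.21, -0.97, -0.96 and -0.84. With all 15 arrays these differences missed the threshold (adjusted p 0.0607, 0.0712, 0.0823 and 0.298). Without siNELF-B arrays 2 and 3 all 4 were called (adjusted p 0.00154, 0.00413, 0.00205 and 0.00879), against 3.19% of clusters and 4.68% of exon medians. The arrays of the 2 groups did not overlap for any of these 4 genes, nor for KIF18A. How often this held over all genes was not counted, so it is description only. KIF20A, KIF4A and KIF23 were measured by exon medians and KIF2C by its cluster. By exon medians KIF2C differed by -0.68 (adjusted p 0.328, limma), and KIF18A, KIF14, KIF15 and KIF11 by -0.39, -0.20, -0.14 and -0.07.

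For the other members the differences between siNELF-E and siNELF-C were smaller in size. KIF18A differed by -0.46, which without the 2 siNELF-B arrays had an adjusted p of 0.0322 but stayed under 1.5-fold. The difference was -0.28 for KIF14 (95% interval -1.10 to 0.55), -0.12 for KIF11 (-1.25 to 1.02) and -0.03 for KIF15 (-0.79 to 0.73). These intervals do not show that the siRNAs acted alike on these genes, and KIF15 was near the lower end of the signal in both groups. CENPE lay below the 25th percentile in both, so its difference is not read.

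**Figure D3:**
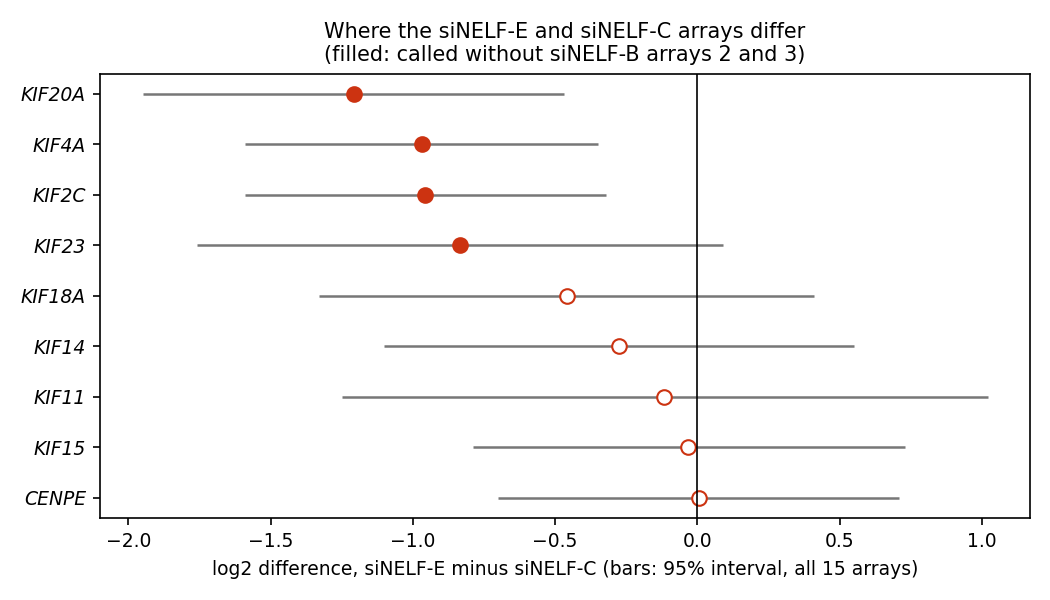
Difference between the siNELF-E and siNELF-C means for each kinesin (horizontal axis, log2), with 95% intervals from the fit to all 15 arrays; filled points were called when siNELF-B arrays 2 and 3 were left out. KIF20A, KIF4A, KIF2C and KIF23 lie between -1.21 and -0.84, and KIF14, KIF11 and KIF15 between -0.28 and -0.03. KIF20A, KIF4A and KIF23 were measured by exon medians and the others by clusters. CENPE, near the lower end of the signal in both groups, is drawn but not read.

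Other kinesins were compared as a class. Of 6 further mitotic kinesins 4 were measured, and 2 fell in the mean of the knockdowns, where 4.46% of all clusters were called lower. These were KIF20B, a relative of KIF20A (-1.66, adjusted p 0.014), and KIF22, a chromosome arm motor (-0.62, adjusted p 0.0247). KIF2A, a depolymerising relative of KIF2C, changed by -0.75 (adjusted p 0.109), and KIF2B by 0.49 at a low level (adjusted p 0.136). With siNELF-E the values were -2.13 for KIF20B and -1.10 for KIF22, both called. Without siNELF-B arrays 2 and 3, 3 of the 4 were called in the mean.

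Among kinesins of transport, cilia and other roles, 26 of 33 were measured and 2 fell in the mean of the knockdowns (5 without siNELF-B arrays 2 and 3). Their median was -0.03 with the deposited scale and 0.03 after quantile normalization, beside -0.08 for all clusters, so its sign turned with the scaling. KIF3B, a subunit of the transport motor kinesin-2, changed by -0.98 (adjusted p 0.0255). It was called with siNELF-C (-1.86, adjusted p 0.00355) and, narrowly, with siNELF-B (-1.09, adjusted p 0.0499). It read -0.85 with siNELF-A (adjusted p 0.143) and -0.10 with siNELF-E (adjusted p 0.934), neither called. KIF24, a depolymerising kinesin of centrioles, changed by -0.62 in the mean (adjusted p 0.0113) and by -1.0 with siNELF-E. The bright members KLC1, a kinesin light chain, and KIF1C, a transport motor, were not called in the mean (-0.53 and 0.04), though KLC1 was called lower with siNELF-B (-1.08, adjusted p 0.0394).

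**Figure D4:**
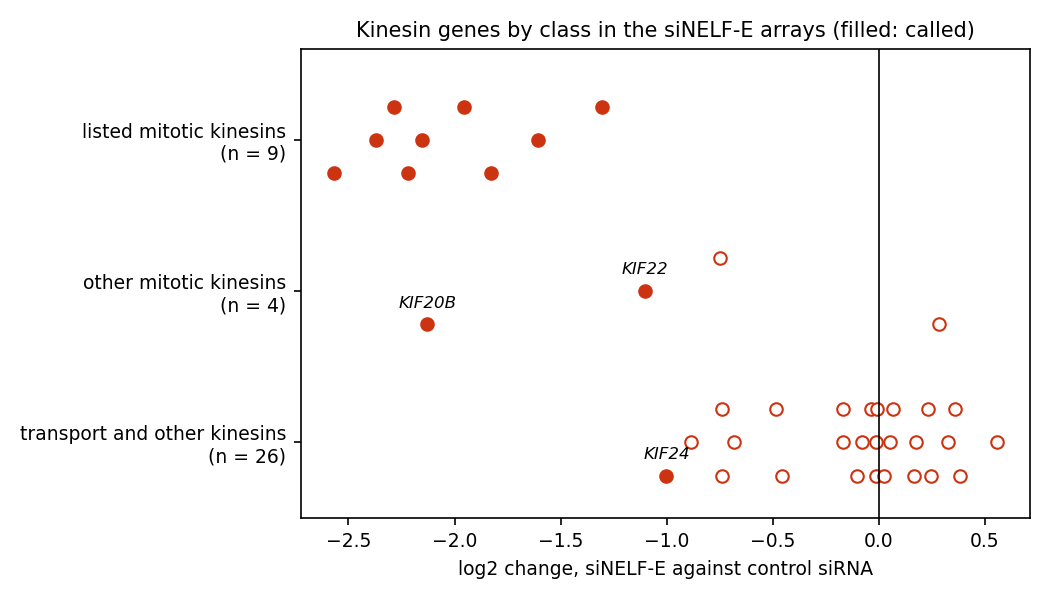
Log2 change with siNELF-E against control (horizontal axis) of the 9 listed mitotic kinesins, 4 other mitotic kinesins and 26 transport and other kinesins; each point is 1 gene and filled points were called. The 8 listed members other than CENPE lie at -1.61 or below, and of the other 30 genes KIF20B, KIF22 and KIF24 were called.

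The proteins that work with these motors gave counts of the same kind. Of 27 measured partners, such as spindle, passenger complex and kinetochore genes, 21 fell in the mean of the knockdowns and none rose, with a median of -1.20. They numbered 6 with siNELF-A, 2 with siNELF-B, 19 with siNELF-C and 23 with siNELF-E, where 2.83%, 4.19%, 5.3% and 4.04% of all clusters were called lower. Without siNELF-B arrays 2 and 3 they numbered 20, 15, 23 and 24 (25 in the mean), where 8.97%, 17.8%, 14.8% and 7.81% of clusters were called lower (9.69% in the mean). HMMR, a spindle protein, MKI67, which coats mitotic chromosomes, and NUF2, of the NDC80 kinetochore complex, changed by -2.77, -2.60 and -2.34 with siNELF-E. NUMA1, which organises spindle poles, was not called with siNELF-E (-0.14). ECT2, the cytokinesis factor that binds centralspindlin, was called with siNELF-C (-1.41, adjusted p 0.0388) and not with siNELF-E (-0.88, adjusted p 0.231) or in the mean (adjusted p 0.0526), but was called in all of these without the 2 siNELF-B arrays.

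Tubulins and dynein gave few calls. In the mean of the knockdowns 4.46% of all clusters were called lower, so lists of this size would hold few calls at that share. Their counts therefore set no contrast with the kinesins. With siNELF-A, -B, -C and -E, 0, 0, 1 and 1 tubulins and 0, 1, 1 and 0 dynein genes were called lower. The shares of all clusters were 2.83%, 4.19%, 5.3% and 4.04%. Of 9 measured tubulins none was called in the mean of the knockdowns (limma; 3 at an unadjusted p under 0.05, and 1 call without siNELF-B arrays 2 and 3). Their median was -0.33, or -0.12 after quantile normalization. TUBB was called lower with siNELF-C (-0.87, adjusted p 0.041) and TUBG1, the tubulin of nucleating centres, with siNELF-E (-0.61, adjusted p 0.0341), but neither list count remained above 0 after quantile normalization. Of 16 dynein and dynactin subunits, which form the motor to the minus end, none was called in the mean (limma; 4 at an unadjusted p under 0.05, and 1 call without the 2 siNELF-B arrays). Their median was -0.32, or -0.15 after quantile normalization. The light chain DYNLL1 changed by -0.53 (adjusted p 0.448) and the dynactin subunit DCTN5 by -0.39 (adjusted p 0.352) in the mean.

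Of 18 measured regulators of mitotic genes, 8 fell in the mean of the knockdowns (also a count of 8 without siNELF-B arrays 2 and 3). FOXM1, MYBL2, which encodes B-MYB, and LIN9, a subunit of MuvB, changed by -2.68 (adjusted p 0.000178), -2.33 (adjusted p 3.44e-06) and -1.44 (adjusted p 0.0113) with siNELF-E. CDKN1A, which encodes the cell cycle inhibitor p21, rose with siNELF-C (0.87, adjusted p 0.00577) and siNELF-E (0.91, adjusted p 0.00269). TFDP2, a partner of E2F factors, was not called (-0.08). The regulators' median in the mean contrast was -0.57, and 4.46% of all clusters were called lower there. With siNELF-A, -B, -C and -E, 2, 2, 7 and 7 regulators were called lower, beside 2.83%, 4.19%, 5.3% and 4.04% of clusters. FOXM1 and MYBL2 were called with siNELF-A too (-1.68 and -0.85, adjusted p 0.00832 and 0.00919, limma), where no kinesin was. LIN9 was not called there (-0.795, adjusted p 0.185).

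Genes of DNA replication and proliferation, cyclins and CDK1 among them, are expressed in cycling cells but are not motors. They moved beside the kinesins, though not all by as much. Of 19 measured, 16 fell in the mean of the knockdowns, with a median of -1.20, and they numbered 2, 2, 11 and 19 with siNELF-A, -B, -C and -E. Without siNELF-B arrays 2 and 3 they numbered 11, 16, 18 and 19 (18 in the mean), and the shares of all clusters are those given for the partners. CCNB2, CCNA2 and TOP2A changed by -2.61, -2.45 and -2.63 with siNELF-E. In the mean of the knockdowns MCM4, of the replicative helicase, changed by -0.55 (adjusted p 0.0898, limma) and was not called. CDK1, the mitotic kinase, changed by -1.31 (adjusted p 0.0823) and was not called either. With siNELF-E both were called, MCM4 at -0.84 (adjusted p 0.0454) and CDK1 at -2.08 (adjusted p 0.0336). On the single arrays the list's median against control was -2.37, -1.93 and -1.87 with siNELF-E, where the kinesins' median was -2.31, -2.01 and -2.14. On siNELF-B arrays 1, 2 and 3 the list stood at -0.94, -0.14 and -1.82. The part that a change in the number of cycling cells had in the kinesin values was not tested.

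The genes with the pattern most like the kinesins were sought over all 15 arrays. For this, each gene was centred on its own mean and its root mean square distance from the members' median profile was taken, over 9127 genes. The 8 nearest were ATAD5 (0.127), CIP2A (0.128), STIL (0.143), MMS22L (0.147), NUF2 (0.147), NEIL3 (0.174), EXO1 (0.177) and ANLN (0.179), in log2 units, where the median gene stood at 0.779. The members themselves lay from 0.14 (KIF15) and 0.15 (KIF18A) to 0.317 (KIF20A), 0.356 (KIF4A) and 0.373 (KIF23). The farthest, KIF23, KIF4A and KIF20A, were those measured by exon medians, so a trait of these genes cannot be told apart from the measure.

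The exon-level probe sets are a second summary of the same arrays. The 9 members had 272, of which 95 were called lower with siNELF-E, where 1.35% of all probe sets were. With siNELF-A, -B and -C the counts were 5, 1 and 32 (background 0.556%, 0.157% and 0.969%), and in the mean of the knockdowns 53 (0.818%). Without any single array the mean count ran from 1 to 190, both ends set by leaving out control array 3 or siNELF-B array 2. Signs were more even than calls: 266 of 272 probe sets lay below 0 with siNELF-E and 262 with siNELF-C. How many of all probe sets lay below 0 was not counted, and probe sets of 1 gene are not independent, so the signs are description only.

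Gene by gene, the changes of the single probe sets were summarised by their median, which is not the change of the exon median used above. For KIF20A, KIF23 and KIF4A both measures rest on the same probe sets. For KIF2C the exon median changed by -1.76 with siNELF-C and -2.44 with siNELF-E. The medians of probe-set changes with siNELF-C and siNELF-E, in that order, were -1.28 and -2.62 for KIF20A, -0.81 and -2.03 for KIF23, -1.30 and -2.55 for KIF2C, and -1.19 and -2.46 for KIF4A. They were -2.34 and -2.23 for KIF11, -1.83 and -1.81 for KIF15, -2.17 and -2.45 for KIF14, -1.82 and -2.49 for KIF18A, and -1.52 and -1.29 for CENPE, whose low signal gives no order. With siNELF-E, 18 of 27 probe sets of KIF2C, 14 of 19 of KIF20A and 20 of 47 of KIF14 were called lower, but 7 of 61 of CENPE and 6 of 36 of KIF15, the 2 members below the 40th percentile.

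**Figure D5:**
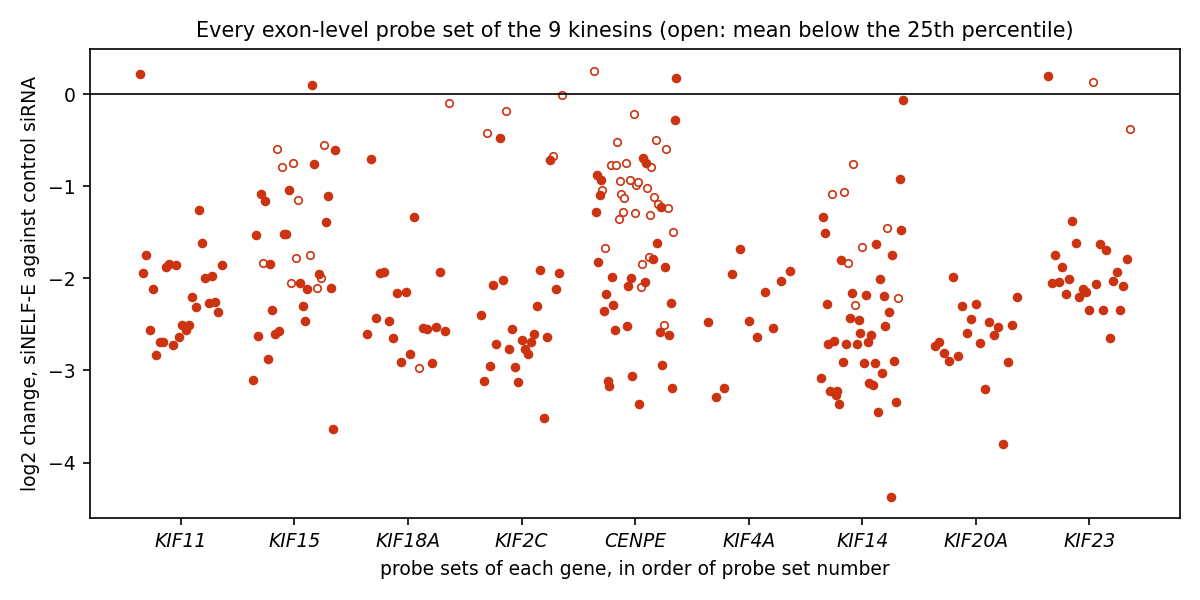
Log2 change with siNELF-E against control (vertical axis) of all 272 probe sets of the 9 kinesins, in order of probe set number within each gene; open points have a mean below the 25th percentile of probe sets. The points span -4.37 to 0.26, 266 of 272 lie below 0, and CENPE has the most open points.

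Exon usage asks whether 1 probe set changes by another amount than its gene as a whole, and limma's diffSplice was the test. It covered 159 probe sets of 7 members, since KIF15 and CENPE were below its level filter. A single KIF11 probe set (3258176) and a single KIF14 probe set (2450413) were called with siNELF-C and in the mean of the knockdowns. In order of number the first is the first of KIF11 and the second the last of KIF14. The KIF14 probe sets just before it, 2450411 and 2450412, changed by -0.78 and -1.06 with siNELF-C and were not called. The called KIF11 probe set read 7.0 in control and 7.53 with siNELF-C, and the called KIF14 probe set 6.08 and 6.60. Both held their level where the rest of the gene was lower. Their usage changes with siNELF-C were 2.68 (adjusted p 0.042) and 2.81 (adjusted p 0.0261). The background of called probe sets was 0.543% with siNELF-C and 0.338% in the mean. No member probe set was called with siNELF-A, -B or -E (background 0.209%, 0.84% and 0.124%), where 7, 12 and 10 had an unadjusted p under 0.05. When each probe set was given a spread of its own, an alternative chosen after seeing the data, neither probe set was called (adjusted p 0.22 and 0.195 with siNELF-C), so these 2 calls rest on the spread that the test pools over a gene.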

How the data were processed

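The authors deposited log2 values, made by RMA in ArrayAssist (Stratagene) for core exons, on build hg18, per the labels. The software's version is not given in the sources used here. Gene-level and exon-level tables held the same 15 arrays, and all value columns were used as deposited. Precision is limited by the number of arrays. Symbols came from the platform annotation, updated through RefSeq gene names; 14432 clusters carried 1 symbol.

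One mean per group was fitted to all 15 arrays with limma 3.58.1 (lmFit, eBayes) in R 4.3.3, with version 1.17.8 of data.table, and p-values were adjusted by Benjamini-Hochberg over all features at each level. Calls needed an adjusted p under 0.05 and a 1.5-fold change. KIF20A, KIF23, KIF4A, NELFE and NELFA, which had no cluster with their symbol alone, were instead measured as medians over exon-level probe sets, which departs from the gene-level plan. Of the 9 measured members, 7 had a mean level above the 40th percentile; no filter was used in the counts. Usage tests left out probe sets below the 25th percentile, genes below the 40th and genes with fewer than 3 probe sets. Scripts were tested on simulated data, where diffSplice also called probe sets of unchanged genes. Named genes of each list were up to 3 called members with the largest change in the mean contrast and the 2 brightest not called. The members, lists and tests were chosen with earlier results of these data known. Alternatives covered scaling, array weights, spread, filters, a replicate block and arrays left out. Same-numbered arrays of different groups did not deviate together (30 pairs, r from -0.297 to 0.203, 3 over 0.1), so numbers were not taken as pairs.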

Additional observations from a re-analysis of the deposited data

How the results depend on the processing

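Counts are of the 9 measured kinesins called lower, in the order siNELF-A, -B, -C, -E and mean of the knockdowns against control, then siNELF-E against -A, -B and -C, siNELF-C against -A and -B, and siNELF-B against -A. As reported they were 0, 0, 7, 9, 8, then 3, 3, 0, 0, 0 and 0. Quantile normalization gave 2, 0, 7, 9, 8, then 5, 3, 3, 0, 0 and 0. Centring arrays on their medians gave 2, 0, 7, 9, 8, then 5, 5, 3, 0, 0 and 0, and on their 75th percentiles 3, 0, 7, 9, 8, then 6, 7, 3, 0, 0 and 0. Array weights, whose fit did not fully converge for some features, gave 8, 8, 9, 9, 9, then 8, 8, 4, 3, 4 and 0. With the interquartile range of the arrays as a covariate they were 4, 0, 5, 9, 6, then 9, 9, 7, 0, 6 and 0. Leaving out features below the 40th percentile, KIF15 and CENPE among them, gave 1, 1, 5, 7, 6, then 3, 3, 1, 0, 0 and 0. Fits to only the groups compared gave 7, 0, 9 and 9, with no separate value for the mean, then 8, 0, 4, 4, 0 and 0. Without siNELF-B arrays 2 and 3 the counts were 9, 6, 9, 9, 9, then 8, 6, 4, 5, 1 and 0. The intensity trend and exon medians for all members changed no count by more than 1.5 times. The replicate block gave 0, 0, 5, 7, 7, then 1, 3, 0, 0, 0 and 0; array numbers did not pair the samples, and 4 of 15 arrays were closest to their own number.

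With 1 array left out, the counts ranged over 0 to 7 for siNELF-A, 0 to 9 for siNELF-B, 1 to 9 for siNELF-C, 6 to 9 for siNELF-E and 1 to 9 for the mean. For the pairs in the same order they ranged over 1 to 7, 0 to 9, 0 to 4, 0 to 1, 0 to 5 and 0 to 1. The upper ends came with siNELF-B array 2 or 3 left out.

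Member probe sets called lower with siNELF-A, -B, -C, -E and in the mean, as reported 5, 1, 32, 95 and 53, became 2, 0, 16, 82 and 24 with the replicate block and 1, 0, 2, 114 and 3 with the interquartile range. Fits to only the groups compared gave 31, 0, 167 and 182. Quantile normalization, both centrings and the filter gave 0 with siNELF-B. Without siNELF-B arrays 2 and 3 the counts were 62, 24, 179, 187 and 185, and with 1 array left out they ranged over 0 to 30, 0 to 149, 1 to 148, 45 to 174 and 1 to 190. Probe sets with changed usage, as reported 0, 0, 2, 0 and 2, were 0, 3, 2, 2 and 4 after quantile normalization, 0, 0, 1, 0 and 2 with the replicate block, 0 in each with a spread of its own for each probe set, and 3, 4, 7, 6 and 6 without siNELF-B arrays 2 and 3. With 1 array left out they ranged over 0 to 3, 0 to 18, 0 to 6, 0 to 5 and 0 to 5.

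Of the single log2 changes, 3 that were not called turned above 0 with the interquartile range as a covariate: KIF23 (0.0621) and CENPE (0.056) with siNELF-B, and KIF23 (0.1965) with siNELF-C. The causes of these shifts were not tested. Beyond these counts, the limits are that the 3 arrays of a group are technical repeats, that the 4 comparisons share their control arrays, that siNELF-B arrays 2 and 3 differ from array 1 in opposite directions, and that KIF15 and CENPE lie near the lower end of the signal, so that their changes may be understated.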
